A study of Mus musculus with 7 samples.

Results

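The nuclear-encoded subunits of the oxidative phosphorylation machinery were examined as 1 gene module across 7 mouse tissues. The members were the 82 gene names in the deposited expression table that match the naming patterns of the subunits of complexes I to V (Nduf, Sdh, Uqcr, Cox4 to Cox8 and Atp5), of 50226 named genes in all. They comprised 35 names of complex I, 4 of complex II, 8 of complex III, 18 of complex IV and 15 of complex V. Ndufa4 and Ndufa4l2 were counted with complex IV, where their products are known to sit. The names Atp5s and Atp5sl matched the patterns but are not subunits of complex V. Of the 82 members, 81 reached 1 FPKM in at least 1 tissue, as did 19122 of all named genes, and the exception was Cox7b2, whose highest level was 0.10 FPKM. The members were chosen by name and not by their levels. A name with several loci, however, took the locus with the highest maximum FPKM, so its values depend on the measured levels. The patterns cover neither the mitochondrially encoded subunits nor subunits with other names.

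The 7 libraries came from wild-type C57BL/6 mice (C57BL/6N in the study's text) of 36 weeks, all on the diet labelled NCD. Adipose tissue was sampled as the interscapular brown depot (BAT), a subcutaneous depot (SCAT) and a visceral depot (VAT), beside skeletal muscle, kidney, liver and cortex. Total RNA was depleted of ribosomal RNA, made into directional libraries and sequenced as read pairs. Each tissue has 1 library, so there is no measure of the spread between animals, and no difference between tissues could be tested. Levels are given as FPKM, fragments scaled for transcript length and library size, so genes may be compared with each other on this scale.

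Oxidative phosphorylation couples the oxidation of NADH and succinate to the making of ATP. Complexes I and II pass electrons to ubiquinone, complex III passes them on to cytochrome c, and complex IV (cytochrome c oxidase) reduces oxygen, while complexes I, III and IV pump protons across the inner mitochondrial membrane and complex V (ATP synthase) lets them back to drive ATP synthesis. Most of the subunits are encoded in the nucleus. Several subunits of complex IV exist as a heart and muscle form and a liver or widely expressed form from separate genes, and brown adipocytes are known for dense mitochondria whose proton gradient is spent as heat through uncoupling protein 1 (Ucp1) rather than on ATP.

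The upstream sequences of the complex IV genes below are shown because the isoform pairs differed most between the tissues. They are the 250 bases before the RefSeq start of each gene (assembly GRCm38.p6), read 5′ to 3′ on the strand of the gene. Cox7a1 lies on the plus strand (chr7:30183921-30184170), and Cox7a2 (chr9:79759854-79760103), Cox8b (chr7:140900447-140900696), Cox8a (chr19:7217617-7217866) and Cox6a1 (chr5:115348959-115349208) lie on the minus strand. Capitals mark matches to the motifs described in the next paragraph, on either strand.
Cox7a1: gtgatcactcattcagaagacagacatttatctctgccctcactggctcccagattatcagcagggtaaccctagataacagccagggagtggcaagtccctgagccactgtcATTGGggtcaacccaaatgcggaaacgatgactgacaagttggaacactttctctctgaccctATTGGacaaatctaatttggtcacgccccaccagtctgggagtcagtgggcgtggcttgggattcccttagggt
Cox7a2: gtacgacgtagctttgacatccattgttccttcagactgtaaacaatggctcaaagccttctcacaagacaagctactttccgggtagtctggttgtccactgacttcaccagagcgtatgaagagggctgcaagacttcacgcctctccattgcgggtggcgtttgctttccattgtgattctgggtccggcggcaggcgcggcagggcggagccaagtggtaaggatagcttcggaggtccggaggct
Cox8b: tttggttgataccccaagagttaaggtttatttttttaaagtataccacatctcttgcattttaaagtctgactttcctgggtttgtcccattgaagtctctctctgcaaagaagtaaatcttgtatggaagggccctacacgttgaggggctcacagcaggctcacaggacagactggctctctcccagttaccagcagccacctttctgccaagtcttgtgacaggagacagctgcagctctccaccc
Cox8a: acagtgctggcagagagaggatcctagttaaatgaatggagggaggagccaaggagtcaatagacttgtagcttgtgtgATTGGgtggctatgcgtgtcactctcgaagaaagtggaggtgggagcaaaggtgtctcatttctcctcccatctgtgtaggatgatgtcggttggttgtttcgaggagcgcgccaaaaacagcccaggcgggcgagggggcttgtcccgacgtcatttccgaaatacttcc
Cox6a1: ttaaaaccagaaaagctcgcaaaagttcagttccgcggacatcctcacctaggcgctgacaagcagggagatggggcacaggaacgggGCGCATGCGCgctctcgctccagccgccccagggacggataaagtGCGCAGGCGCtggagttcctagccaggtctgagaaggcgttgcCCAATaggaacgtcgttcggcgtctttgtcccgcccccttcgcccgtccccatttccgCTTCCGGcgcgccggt

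RefSeq upstream sequences were found for 65 of the 82 members and for 12256 of the 19122 background genes, and both strands were searched. The NRF1 motif, GCGCA and GCGC parted by 1 base of any kind, occurred upstream of 12 members (18.5%, against 6.98% of the background genes), and the ETS motif CCGGAAG upstream of 11 (16.9%, against 11.5%). The ERR motif AAGGTCA occurred upstream of 5 members (7.69%, against 3.17%), and CCAAT upstream of 29 (44.6%, against 35.5%). TATAAA was found upstream of 6 members (9.23%, against 7.74%), the YY1 motif AAGATGG upstream of 0 (against 4.09%) and the MEF2 motif upstream of 0 (against 0.571%). The NRF1 and ETS motifs are those of factors known to act on respiratory genes, but a match of letters is not a binding site. Among the sequences above, Cox6a1 holds 2 NRF1 matches, an ETS match and a CCAAT, Cox7a1 holds 2 CCAAT and Cox8a 1, and Cox7a2 and Cox8b hold none of these motifs in the 250 bases. The median GC content was 55.2% for the members and 58.8% for the background genes.

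The labelled tissues were checked against marker genes. Hepatocyte, kidney tubule, neuron and muscle fibre markers were highest where the labels place them and the summed adipocyte markers in the 3 fat depots, with Ucp1 at 6552 FPKM in BAT and at most 10.6 FPKM elsewhere. Of the other brown adipocyte markers, Elovl3 was also present in liver (65.6 FPKM, against 165 in BAT). The cortex held the neuron markers Snap25 (215 FPKM), Gad1 (133) and Slc17a7 (100.2), and the hepatocyte gene Alb has no value in liver. Markers of other tissues were also present. The 3 hepatocyte markers summed to 300.3 FPKM in VAT and to 196.7 FPKM in cortex, the latter nearly all Ttr (195 FPKM). The 3 epididymis markers summed to 2639 FPKM in VAT and to at most 1.99 FPKM elsewhere, and the 4 testis germ cell markers to 31.6 FPKM in VAT. In SCAT the 3 lymphocyte markers summed to 89.5 FPKM and the 4 pancreatic acinar markers to 92.9 FPKM, against at most 2.80 and 8.82 FPKM elsewhere. Muscle fibre markers summed to 790 FPKM in BAT, 78.7 FPKM in VAT and 79.2 FPKM in SCAT, of which 70.2 FPKM were at the Tnnt3 locus shared with Lsp1, against 32213 FPKM in skeletal muscle. The part of this RNA in the results for VAT, SCAT and BAT was not tested, and in whole tissue a lower level cannot be told apart from fewer cells of the expressing type.

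The subunit genes were highest in BAT and skeletal muscle and lowest in the white adipose depots. For each gene and tissue, the difference is log2(FPKM + 0.1) minus the median of the other 6 tissues, and at least 2-fold (1 on the log2 scale) counts as higher or lower. In BAT 75 of the 81 members were higher and 1 was lower, against 19.7% and 9.24% of all named genes, with a median difference of 2.32 (4.98-fold). In skeletal muscle 73 were higher and 3 lower, against 25.6% and 13.2% of all named genes, with a median of 1.95 (3.86-fold). Kidney came next by its median of 0.73, with 17 members higher and 1 lower (18.5% and 10.1% of all named genes). The share of members higher in kidney was thus close to that of all named genes. Liver stood near the middle, with 6 higher and 4 lower (19.7% and 16.4%) and a median of 0.19.

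On the low side, SCAT had 76 members lower and 1 higher, against 21.0% and 12.3% of all named genes, with a median difference of -2.05. VAT had 65 lower and 1 higher (10.6% and 16.0%) with a median of -1.40. In cortex 40 were lower and 0 higher (23.8% and 23.7%), and the median was -0.97. The median over all named genes lay between -0.26 in SCAT and 0.20 in skeletal muscle. Relative to it, the members stood at 2.17 in BAT, 1.75 in skeletal muscle, 0.68 in kidney, 0.15 in liver, -0.89 in cortex, -1.28 in VAT and -1.78 in SCAT. The places of liver, kidney and cortex depend on the reference. With VAT and SCAT left out of it, their medians were -0.95, -0.41 and -1.76, and 73 members were lower in cortex (28.0% of all named genes). The liver median also turned negative (-0.36) when the libraries were scaled to an equal sum. After scaling each library by its median ratio to the others, 28 members in place of 65 were lower in VAT, where 3.56% of all named genes were then lower. In cortex 22 in place of 40 were then lower, against 21.0% of all named genes, a share close to that of the members. Scaled to an equal sum, 16 were lower in VAT (2.61% of all named genes) and 7 in cortex (18.8%), so the cortex count was then below that share.

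**Figure D1:**
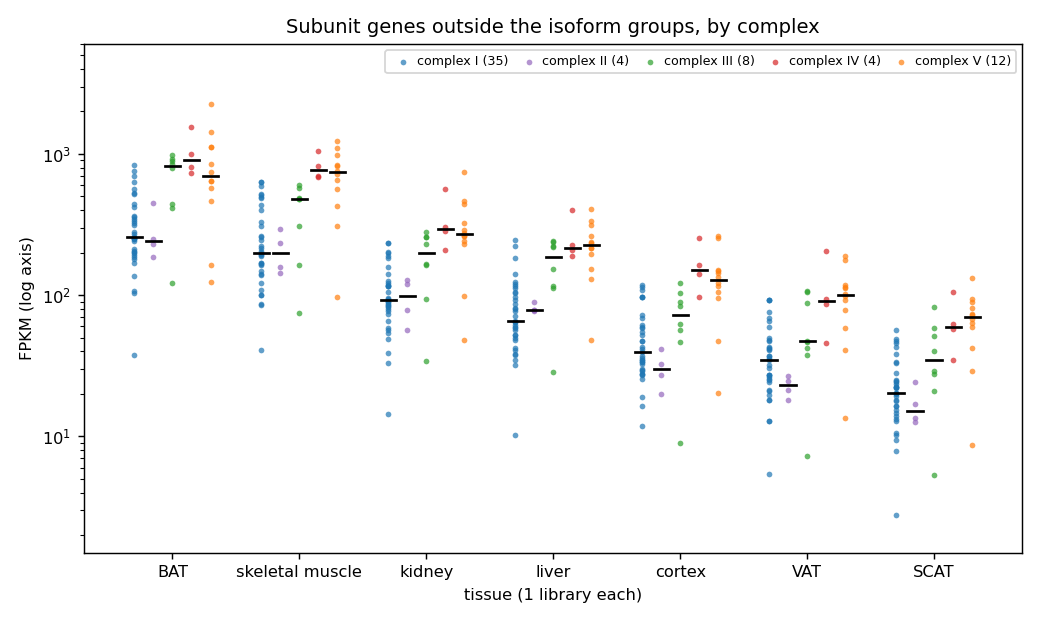
FPKM (log axis) of the 63 subunit genes outside the isoform groups in each of the 7 tissues, with 1 library each. Points are genes coloured by complex and black bars are the medians, which for complex I are 258 FPKM in BAT, 198 FPKM in skeletal muscle and 20.2 FPKM in SCAT.

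Apart from the isoform groups described further on, the subunits shared the same high and low tissues. Of these 63 genes, 63 were higher in BAT, 62 were higher in skeletal muscle and 63 were lower in SCAT by at least 2-fold. BAT held the highest level for 50 and skeletal muscle for 13, where 14.1% and 23.3% of all named genes peak, and SCAT held the lowest for all 63 (19.8% of all named genes). BAT and skeletal muscle were the top tissues for 62, and the share of all named genes with these top tissues was not computed. The exception was Uqcrq, a small subunit of complex III, which was higher in liver (221 FPKM) than in skeletal muscle (165 FPKM); its locus in the table also carries Leap2, a gene for an antimicrobial peptide made in the liver. In all, 9 members stood on a locus that carries another gene, and the values there cover every gene of the locus. By any amount, kidney exceeded liver for 56 of the 63, cortex exceeded VAT for 54, and VAT exceeded SCAT for 63, where 48.8%, 53.5% and 58.1% of all named genes did so.

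Complex I takes electrons from NADH, and its 35 genes had a median of 258 FPKM in BAT, 198 in skeletal muscle, 92.4 in kidney, 65.4 in liver, 39.4 in cortex, 34.8 in VAT and 20.2 in SCAT. Ndufb9 had the highest median level over the tissues (224 FPKM) and Ndufa11 the lowest (11.9 FPKM), both accessory subunits. Ndufv1 binds NADH and the flavin, and it spanned 15.5 FPKM in SCAT, 25.0 in VAT, 37.3 in cortex, 61.9 in liver, 94.6 in kidney, 198 in skeletal muscle and 424 in BAT. That is 27.4-fold from SCAT to BAT. The iron-sulfur subunit Ndufs1 ranged from 16.3 FPKM in SCAT through 223 in skeletal muscle to 336 in BAT. Ndufs7, which carries the last iron-sulfur cluster of the chain, was instead highest in skeletal muscle, at 247 FPKM against 203 in BAT and 13.2 in SCAT. Ndufs8, another iron-sulfur subunit, had 180 FPKM in BAT, 84.7 in skeletal muscle and 10.3 in SCAT, at a locus shared with Aldh3b1. Ndufa10, Ndufs8 and Ndufv1 were the complex I genes lower in skeletal muscle than in BAT by at least 2-fold, by -1.10, -1.09 and -1.10 on the log2 scale. In all, 27 of the 35 were higher in BAT than in skeletal muscle by any amount, a share not computed over all named genes. The median log2 difference of skeletal muscle from BAT was -0.26 for complex I, against 0.02 for all named genes.

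Some accessory subunits of complex I departed from the rest. Ndufa7 had 327 FPKM in BAT, 197 in skeletal muscle, 123 in liver, 117 in kidney, 92.8 in VAT, 58.4 in cortex and 42.9 in SCAT. It was the subunit outside the isoform groups whose difference in skeletal muscle stayed under 2-fold (0.92). Ndufa6 had 443 FPKM in BAT, 308 in skeletal muscle, 247 in liver, 198 in kidney, 66.0 in VAT, 60.0 in cortex and 47.5 in SCAT. In liver it stood 1.02 log2 units above the median of its complex and in cortex 0.96 below it, and its locus also carries Cyp2d22, a gene of the cytochrome P450 family. Ndufb2 (433 FPKM in skeletal muscle and 279 in BAT) shares its locus with Adck2 and Gm42420, and Ndufb8 (835 FPKM in BAT and 496 in skeletal muscle) with Gm20538 and Sec31b.

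Complex II oxidises succinate and is the 1 complex made of nuclear subunits alone. Sdha, its flavoprotein, had 186 FPKM in BAT, 159 in skeletal muscle, 77.9 in liver, 56.3 in kidney, 32.5 in cortex, 18.2 in VAT and 16.9 in SCAT. It was higher in liver than in kidney, unlike the other 3 subunits. The iron-sulfur subunit Sdhb had 447 FPKM in BAT, 295 in skeletal muscle, 129 in kidney, 88.8 in liver, 41.3 in cortex, 26.6 in VAT and 24.1 in SCAT. Of the membrane anchors, Sdhc had 252 FPKM in BAT, 236 in skeletal muscle, 119 in kidney, 77.5 in liver, 24.9 in VAT, 19.9 in cortex and 13.6 in SCAT. Its difference in cortex was -2.27, the largest on the low side there after Cox8b. Sdhd had 231 FPKM in BAT, 142 in skeletal muscle, 79.0 in kidney, 78.9 in liver, 27.1 in cortex, 21.1 in VAT and 12.7 in SCAT. The loci of Sdha and Sdhd also carry Lrrc14b and AU019823.

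All 8 complex III genes were higher in BAT than in skeletal muscle, with medians of 817 and 479 FPKM. Their median log2 difference of skeletal muscle from BAT was -0.72, against 0.02 for all named genes. The share of all named genes higher in BAT by any amount was not computed. The core protein gene Uqcrc1 had 790 FPKM in BAT, 477 in skeletal muscle, 164 in kidney, 115 in liver, 62.2 in cortex, 37.5 in VAT and 28.8 in SCAT. Uqcrfs1 encodes the Rieske iron-sulfur protein and had the lowest median level of the complex: 123 FPKM in BAT, 74.8 in skeletal muscle, 34.2 in kidney, 28.7 in liver, 9.02 in cortex, 7.24 in VAT and 5.30 in SCAT. These values come from a locus that the order of the table places on the strand opposite to the gene. On the annotated strand Uqcrfs1 had 101 FPKM in BAT, 65.0 in skeletal muscle and 3.67 in SCAT, in the same order of tissues. Uqcr11, a small subunit, had the highest median level, with 984 FPKM in BAT, 600 in skeletal muscle, 256 in kidney, 241 in liver, 107 in VAT, 103 in cortex and 51.8 in SCAT.

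In complex IV, Cox5a and Cox5b, subunits without a tissue form, had 806 and 1005 FPKM in BAT and 827 and 702 FPKM in skeletal muscle. In SCAT they had 34.6 and 62.5 FPKM and in VAT 45.9 and 86.6 FPKM. Cox5a was one of the 13 genes higher in skeletal muscle than in BAT, and its difference in VAT (-2.12) was among the largest on the low side there. Ndufa4, with a median of 531 FPKM, had the highest median level of the 82 members and reached 1590 FPKM in BAT, 1112 in skeletal muscle and 121 in SCAT.

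In complex V, the alpha and beta subunit genes Atp5a1 and Atp5b differed in size but kept 1 order of tissues. Atp5b had 2240 FPKM in BAT, 1240 in skeletal muscle, 744 in kidney, 406 in liver, 253 in cortex, 191 in VAT and 132 in SCAT, and Atp5a1 had 1117, 978, 462, 313, 150, 92.9 and 67.6 FPKM. The gamma subunit gene Atp5c1 was highest in skeletal muscle, with 835 FPKM against 575 in BAT, 324 in kidney and 81.5 in SCAT. Atp5d, the delta subunit, had the lowest median level of the complex, from 8.71 FPKM in SCAT to 125 FPKM in BAT. Atp5f1 (561 FPKM in skeletal muscle and 462 in BAT) shares its locus with I830077J02Rik, and Atp5o (743 FPKM in BAT and 722 in skeletal muscle) with Donson. Of the names that are not subunits, Atp5s peaked in kidney at 17.0 FPKM and Atp5sl in skeletal muscle at 12.4 FPKM, and Atp5sl had the largest difference on the low side in VAT (-2.24).

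**Figure D2:**
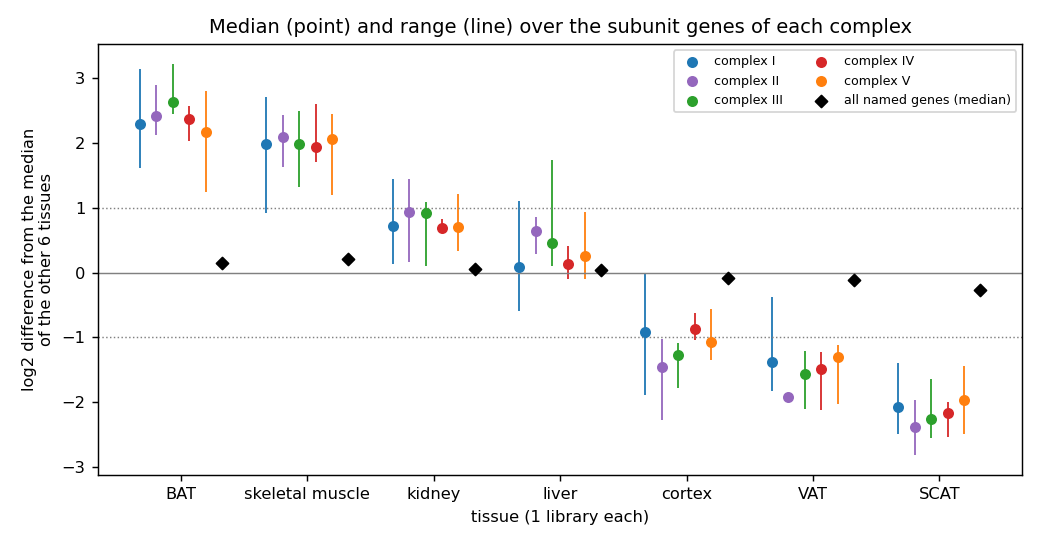
Log2 difference from the median of the other 6 tissues, as the median (point) and range (line) over the subunit genes of each complex outside the isoform groups, with the median of all named genes as a diamond and 2-fold as dotted lines. The medians of the 5 complexes lie between 2.17 and 2.63 in BAT and between 1.93 and 2.08 in skeletal muscle.

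Between the complexes, the median differences over the genes outside the isoform groups were similar in BAT, skeletal muscle and SCAT. In BAT they were 2.30 for complex I, 2.42 for II, 2.63 for III, 2.37 for IV and 2.17 for V. In skeletal muscle they were 1.99, 2.08, 1.99, 1.93 and 2.06, and in SCAT -2.07, -2.39, -2.26, -2.16 and -1.97. VAT spread further, from -1.92 for complex II to -1.30 for complex V, as did liver, from 0.09 for complex I to 0.64 for complex II, and in cortex complex II was lowest at -1.45 and complex IV highest at -0.88. The genes of a complex varied among themselves by as much, since complex I alone spanned 1.61 to 3.14 in BAT. No difference between complexes could be tested with 1 library per tissue.

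Each gene was also compared with the median of its own complex, taken over all of its genes, the isoform genes and the gene itself included. For the 63 genes outside the isoform groups, this deviation spanned a median of 0.90 log2 units across the tissues, and 37 of them spanned under 1. The smallest spans were those of Uqcr10 and Atp5e (0.38 each) and Ndufs4 (0.44), so these followed their complexes most closely. The largest spans of all members were those of Cox6a2 (11.71), Cox8b (10.13) and Cox8c (6.88), all isoform genes of complex IV. The span of Cox8c rests on 1.09 FPKM in VAT and on zeros elsewhere, so it reflects the pseudocount of 0.1 and the change of the rest of the complex.

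**Figure D3:**
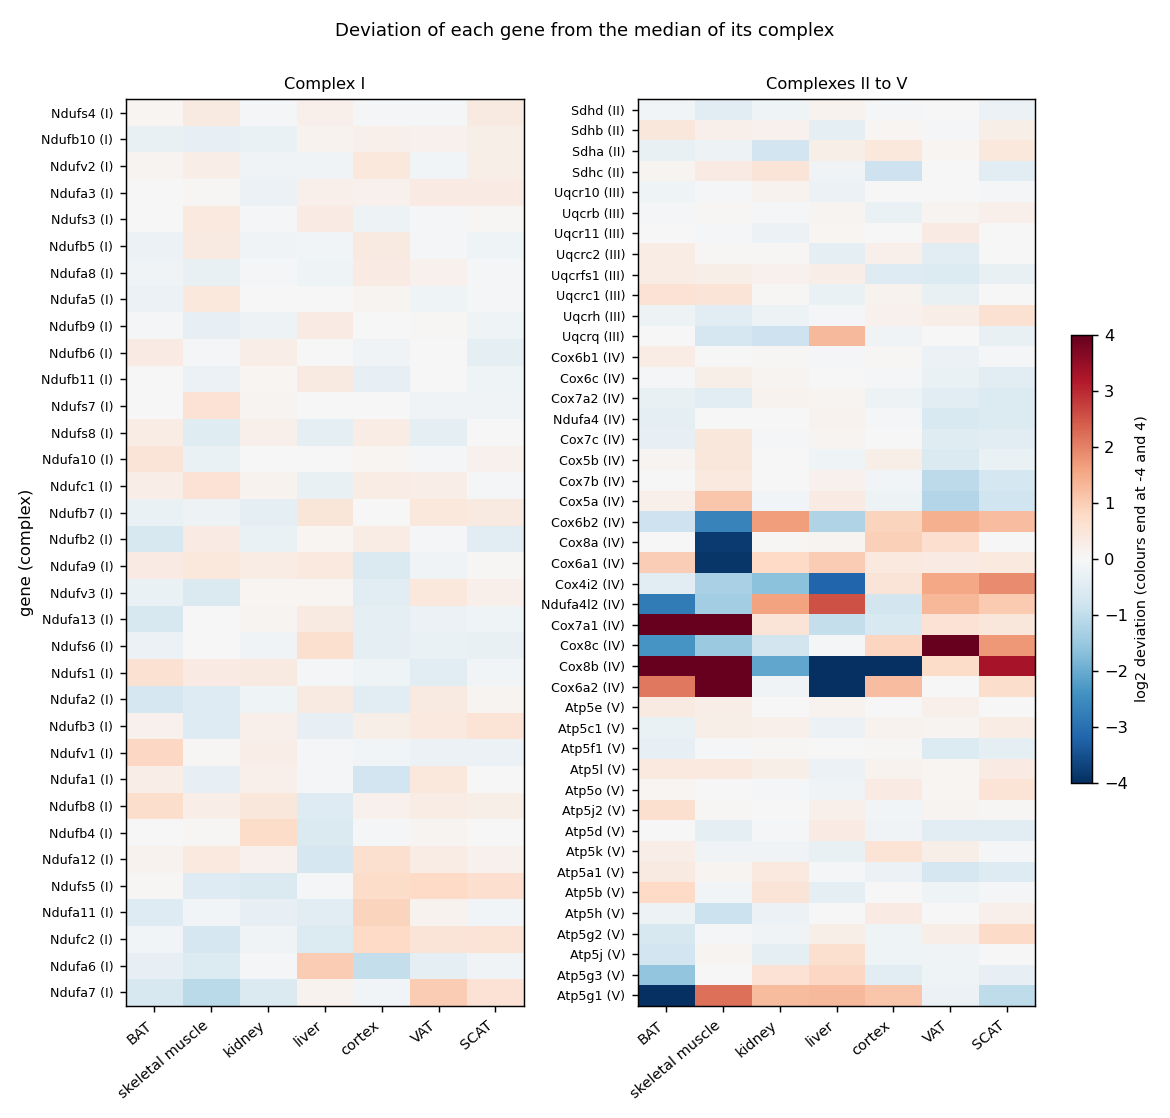
Deviation of the subunit genes (rows, 1 gene of complex I not shown) from the median of its complex in each tissue (columns), on the log2 scale, with the complex in brackets and genes sorted by their span within each complex. Most genes are pale throughout, while Cox6a2, Cox7a1, Cox8b, Cox6a1, Cox8a and Atp5g1 stand out in BAT or skeletal muscle.

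Among the isoform genes of complex IV, Cox7a1 and Cox8b were far higher in skeletal muscle and BAT than in the other tissues, while Cox6a2 was 25.3-fold higher in skeletal muscle than in BAT, which in turn exceeded the remaining tissues. Subunit VIa is encoded by Cox6a1 (the widely expressed form, ENSMUSG00000041697.8, chr5:115345642-115348981) and Cox6a2 (the heart and muscle form, ENSMUSG00000030785.8, chr7:128205435-128206387). Cox6a2 had 802 FPKM in skeletal muscle, 31.7 in BAT, 2.07 in kidney, 1.87 in cortex, 0.96 in VAT, 0.91 in SCAT and 0.03 in liver. Cox6a1 had 508 FPKM in BAT, 145 in kidney, 107 in liver, 52.1 in cortex, 48.4 in VAT, 29.5 in SCAT and 14.1 in skeletal muscle. The order was thus turned round: Cox6a2 made up 98.3% of the summed FPKM of the pair in skeletal muscle, 5.87% in BAT and 0.03% to 3.46% elsewhere. Cox6a2 was the member farthest above the other tissues in skeletal muscle (9.12) and Cox6a1 the one farthest below them (-2.40). A further locus of Cox6a2 on the opposite strand had similar values, with 708 FPKM in skeletal muscle and 32.0 FPKM in BAT.

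Subunit VIIa showed another distribution. Cox7a1, the heart and muscle form (ENSMUSG00000074218.3, chr7:30184144-30186078), had 1780 FPKM in BAT, 872 in skeletal muscle, 22.2 in kidney, 10.4 in VAT, 8.22 in liver, 6.23 in SCAT and 5.52 in cortex. Cox7a2, the liver form (ENSMUSG00000032330.7, chr9:79755361-79759878), had 687 FPKM in BAT, 348 in skeletal muscle, 309 in kidney, 223 in liver, 126 in cortex, 98.0 in VAT and 53.7 in SCAT. Cox7a1 therefore made up 72.1% of the pair in BAT and 71.5% in skeletal muscle, and 3.56% to 10.4% elsewhere. From SCAT to BAT Cox7a1 spanned 286-fold and Cox7a2 12.8-fold. The log2 differences of Cox7a1 and Cox8b in BAT, 7.57 and 7.92, were the largest of the members there.

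For subunit VIII, Cox8b (the heart and muscle form, ENSMUSG00000025488.9, chr7:140898945-140900446, minus strand) had its highest values at a locus that the table places on the opposite strand. There it had 11478 FPKM in BAT, 5108 in skeletal muscle, 140 in SCAT, 61.6 in VAT, 36.5 in kidney, 4.07 in liver and 2.11 in cortex. On the annotated strand it had 1675 FPKM in BAT, 591 in skeletal muscle, 14.3 in SCAT, 6.71 in VAT, 3.11 in kidney, 0.54 in cortex and 0.16 in liver. A further locus on the opposite strand had 8647 FPKM in BAT, 4122 in skeletal muscle, 81.3 in SCAT and 40.6 in VAT. All 3 loci thus placed BAT first, skeletal muscle next and SCAT above VAT. Unless the annotated strand is named, the Cox8b values elsewhere are those of the locus with 11478 FPKM in BAT. Cox8a, the liver form (ENSMUSG00000035885.5, chr19:7215153-7217616), had 436 FPKM in BAT, 146 in kidney, 97.3 in liver, 93.9 in cortex, 78.2 in VAT, 28.6 in SCAT and 18.5 in skeletal muscle, where its log2 difference was -2.36. On the annotated strand Cox8b made up 79.3% of subunit VIII in BAT, 97.0% in skeletal muscle, 33.4% in SCAT, 7.90% in VAT and 0.17% to 2.09% elsewhere. With the opposite-strand locus these shares were 96.3%, 99.6%, 83.0% and 43.7%, with 2.20% to 20.0% elsewhere. Cox8b had the lowest log2 difference of the members in liver (-4.48), cortex (-5.39) and kidney (-1.35) and, after Cox6a2, the highest in skeletal muscle (6.75). It was the only member higher by at least 2-fold in SCAT (1.56), and the markers of brown adipocytes and muscle fibres were mixed there. Of the 3 brown adipocyte markers 1 was at least 2-fold higher in SCAT (Cidea, 3.10 FPKM) and 2 were lower (Ucp1 at 0.32 FPKM and Elovl3 at 0), with a median difference of -1.38. Of the 8 muscle fibre markers 2 were higher, Tnnt3 (70.2 FPKM, locus shared with Lsp1) and Myl1 (4.72 FPKM), and 4 were lower, with a median of -0.96. The part of such cells in the SCAT value of Cox8b was not tested.

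**Figure D4:**
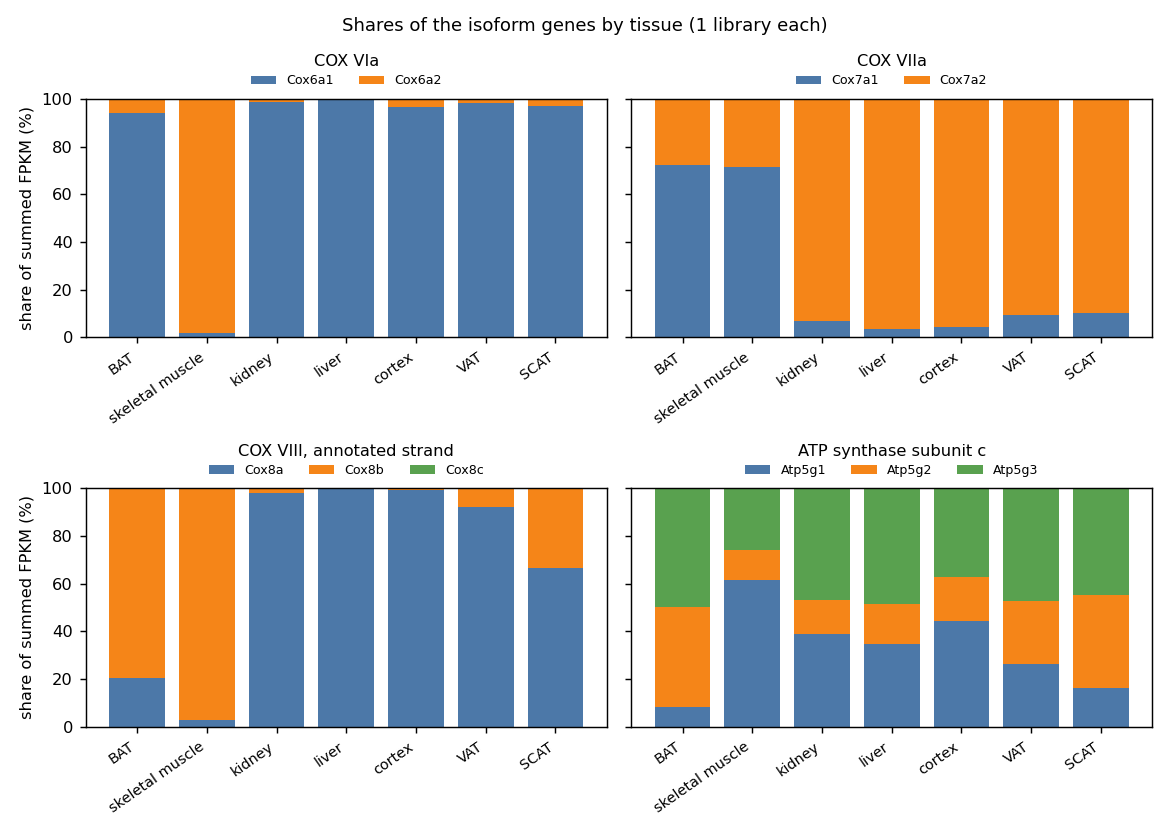
Share of each isoform gene in the summed FPKM of its group (%), per tissue with 1 library each, for COX subunits VIa, VIIa and VIII (Cox8b on its annotated strand) and for ATP synthase subunit c. The muscle form is 98.3% of VIa in skeletal muscle but 5.87% in BAT, whereas Cox7a1 makes up 72.1% and 71.5% of VIIa in BAT and skeletal muscle.

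The remaining isoform genes of complex IV were at low levels, and no other form of subunit IV than Cox4i2 was analysed here. Cox6b2, known from testis, was highest in kidney at 4.91 FPKM, followed by BAT at 2.60, VAT at 1.21, cortex at 0.98, SCAT at 0.74, liver at 0.45 and skeletal muscle at 0.42 FPKM. Its partner Cox6b1 had 1482 FPKM in BAT, 656 in skeletal muscle, 405 in kidney, 284 in liver, 195 in cortex, 150 in VAT and 96.7 in SCAT, so Cox6b2 never exceeded 1.20% of the pair. Cox4i2, a lung and hypoxia-linked form of subunit IV, had 3.53 FPKM in BAT, 1.38 in VAT, 1.00 in both SCAT and skeletal muscle, 0.77 in cortex, 0.48 in kidney and 0.03 in liver. After Cox8c it had the highest log2 difference in VAT, at 0.60, which is under 2-fold. Ndufa4l2, a hypoxia-linked relative of Ndufa4, had 14.6 FPKM in liver, 11.7 in kidney, 2.94 in VAT, 2.58 in skeletal muscle, 1.97 in BAT, 1.65 in SCAT and 0.86 in cortex. It was the member farthest above the other tissues in liver (2.64) and, after Cox6b2 (2.39), in kidney (2.32). Cox7b2 was listed at 0 in 4 tissues and at most at 0.10 FPKM elsewhere, while its partner Cox7b had 734 FPKM in BAT, 524 in skeletal muscle and 39.0 in SCAT. Cox8c, known from testis, had 1.09 FPKM in VAT on the opposite strand, while its value in each other tissue was 0. The testis germ cell marker Prm1 had 22.9 FPKM in VAT and 3.88 FPKM in skeletal muscle, and its part in the Cox8c value was not tested.

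Subunit c forms the rotating ring of ATP synthase and is encoded by Atp5g1 (chr11:96068852-96075670), Atp5g2 (chr15:102662864-102672352) and Atp5g3 (chr2:73908447-73911326), all on the minus strand. Their precursors differ in the part that directs import and are known to release the same mature protein, and Atp5g1 is known as a control point of the ATP synthase content of brown fat. The last 120 coding bases of each are shown because the assignment of reads to the genes rests on their differences, with capitals where a base differs from Atp5g1 (GENCODE transcripts, GRCm38).
Atp5g1: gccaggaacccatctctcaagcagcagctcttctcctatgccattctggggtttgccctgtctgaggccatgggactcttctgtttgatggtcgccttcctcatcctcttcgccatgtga
Atp5g2: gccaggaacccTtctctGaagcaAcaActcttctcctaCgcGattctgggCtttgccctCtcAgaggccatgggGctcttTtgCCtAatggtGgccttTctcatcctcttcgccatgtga
Atp5g3: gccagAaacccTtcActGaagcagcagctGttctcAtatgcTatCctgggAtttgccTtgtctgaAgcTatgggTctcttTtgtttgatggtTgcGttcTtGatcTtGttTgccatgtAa
In this stretch Atp5g2 differs from Atp5g1 at 16 bases and Atp5g3 at 22. Over the last 228 coding bases the identity to Atp5g1 is 85.1% and 79.8%, and the longest run shared by any pair is 21 bases in the whole coding sequence, against reads of 101 bases. For the complex IV pairs above, the longest shared coding run is between 8 and 14 bases, and for Ndufa4 and Ndufa4l2 it is 28.

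In BAT, Atp5g1 did not share the high level of the other complex V genes. It had 907 FPKM in skeletal muscle, 188 in kidney, 141 in liver, 69.5 in cortex, 32.8 in VAT, 24.5 in BAT and 12.4 in SCAT. It was the only member lower in BAT by at least 2-fold (-2.01), it deviated by -4.01 log2 units from the median over all 15 genes of complex V there, and in SCAT it was the member farthest below the other tissues (-2.98). Between skeletal muscle and BAT the ratio was 37.0, whereas Atp5b was 1.81-fold higher in BAT. Atp5g2 had 184 FPKM in skeletal muscle, 122 in BAT, 69.7 in kidney, 67.9 in liver, 32.6 in VAT, 29.4 in SCAT and 28.6 in cortex. Atp5g3 had 382 FPKM in skeletal muscle, 226 in kidney, 198 in liver, 144 in BAT, 58.6 in VAT, 58.3 in cortex and 34.1 in SCAT. The share of Atp5g1 in the 3 genes was 61.6% in skeletal muscle, 44.4% in cortex, 38.9% in kidney, 34.7% in liver, 26.4% in VAT, 16.4% in SCAT and 8.43% in BAT.

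The 3 subunit c genes were then summed and set against Atp5b, a comparison chosen after the values had been seen. The sum was 13.0% of the Atp5b FPKM in BAT, 57.6% in SCAT, 61.7% in cortex, 65.0% in kidney, 65.1% in VAT, 101% in liver and 119% in skeletal muscle. BAT was thus lowest by this measure although its Atp5b level was the highest.

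**Figure D5:**
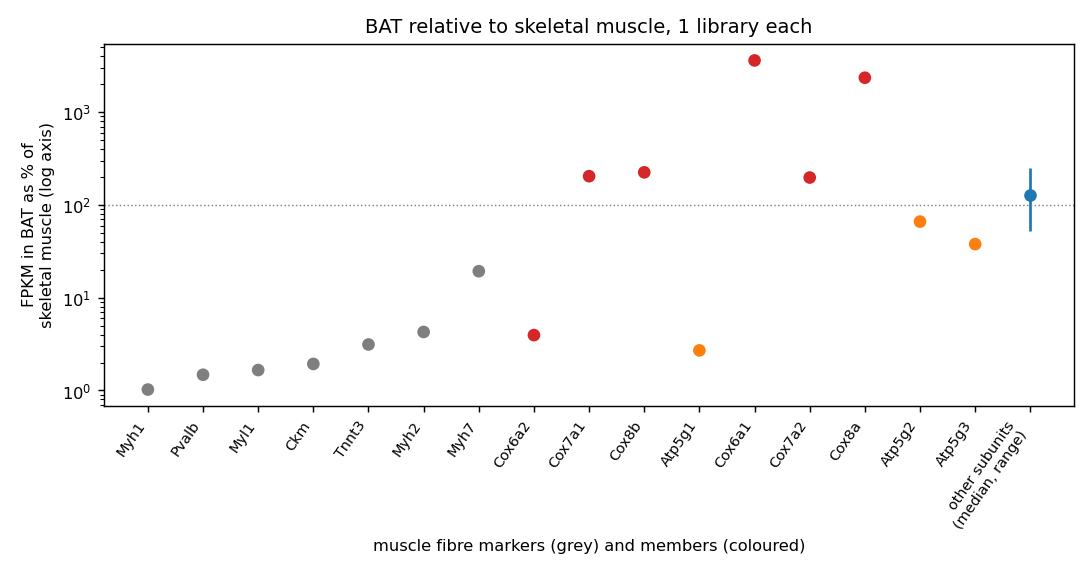
FPKM in BAT as a percentage of that in skeletal muscle (log axis), with 1 library each, for 7 muscle fibre markers (grey), the isoform genes of COX subunits VIa, VIIa and VIII (red) and of ATP synthase subunit c (orange), and the 63 subunit genes outside the isoform groups (blue, median and range). The fibre markers lie between 1.02% and 19.3%, Cox6a2 at 3.95%, Atp5g1 at 2.70% and Cox7a1 at 204%.

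Because the BAT library also held muscle fibre RNA, the isoform genes were set beside the fibre markers. Of 8 markers in the table, 8 were at least 2-fold higher in BAT than in the median of the other tissues and 0 were at 0, and 7 have values in both tissues. In BAT as a percentage of skeletal muscle, these were 1.02% for Myh1, 1.48% for Pvalb, 1.66% for Myl1, 1.93% for Ckm, 3.13% for Tnnt3, 4.27% for Myh2 and 19.3% for Myh7. Cox6a2 stood at 3.95%, within this range. Cox7a1 at 204% and Cox8b at 225% lay far above it, and Atp5g1 at 2.70% was within it. The part of muscle fibre RNA in the BAT level of Cox6a2 was not tested.

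Brown fat was next compared with the white depots, where VAT and SCAT are different depots and not replicates. BAT exceeded both by at least 2-fold for 78 of 81 members, against 20.6% of all named genes, and was below both for 0 (6.74%). Against VAT alone 78 were higher and 1, Cox8c, was lower (24.0% and 16.3%), and against SCAT alone 78 were higher and 0 lower (30.0% and 13.7%). The median difference from the mean of the depots was 3.41, against 0.25 for all named genes. This median depends on the scaling: it was 2.69 with median ratio scaling and 2.46 with equal sum scaling. As reported, the difference was largest for Cox7a1 (7.77), Cox8b (6.95) and Cox6a2 (4.94). The members that did not pass were Atp5g1 (0.28), Ndufa4l2 (-0.16) and Cox8c (-1.79). By complex the medians were 3.40 for I, 3.79 for II, 3.76 for III, 3.41 for IV and 3.22 for V.

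The members differed less between skeletal muscle and BAT. In these libraries 3 of 81 members were higher in skeletal muscle by at least 2-fold (19.7% of all named genes), namely Atp5g1 (5.20), Cox6a2 (4.66) and Atp5g3 (1.40). Another 11 were lower (15.4%), and the median was -0.46, against 0.02 for all named genes. Of these, 7 belong to complex IV, with Cox6a1 (-5.17) and Cox8a (-4.55) farthest, followed by Cox6b2 (-2.38), Cox4i2 (-1.72), Cox6b1 (-1.17), Cox8b (-1.17) and Cox7a1 (-1.03). The others were Uqcrq (-1.33), Ndufa10, Ndufv1 and Ndufs8.

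Between the white depots, VAT exceeded SCAT by at least 2-fold for 9 members (15.8% of all named genes) and was below it for 1 (9.14%), with a median difference of 0.69 against 0.15 for all named genes. The 1 gene higher in SCAT was Cox8b (-1.18), and among those higher in VAT were Cox8a (1.45) and Atp5g1 (1.39). The adipocyte markers Adipoq (330 FPKM in VAT and 110 in SCAT) and Plin1 (102 and 74.8 FPKM) were also higher in VAT, and their part in this difference was not tested.

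Genes that work with the module shared the pattern of tissues to different degrees. All 14 genes of the tricarboxylic acid cycle were higher in BAT by at least 2-fold, with a median difference of 3.21, and 13 in skeletal muscle (2.11), where 19.7% and 25.6% of all named genes were higher. Idh3a, a subunit of isocitrate dehydrogenase, was farthest in BAT (484 FPKM, 4.49) and Suclg2, the GTP-linked succinyl-CoA ligase subunit, nearest (63.5 FPKM, 1.59). In skeletal muscle citrate synthase (Cs) was farthest, with 146 FPKM and a difference of 3.16, while Suclg2 stood at 0.09. The 78 genes with mitochondrial ribosome names (Mrpl and Mrps) had medians of 1.44 in BAT and 1.14 in skeletal muscle, with 65 and 43 higher and 0 lower in either. They were taken by name alone, so not every one need be a ribosomal subunit. Among these, Mrps36 (149 FPKM) was farthest in BAT and Mrps25 (8.79 FPKM) nearest, and in skeletal muscle Mrpl42 (300.2 FPKM) and Mrps6 (2.94 FPKM) were the extremes. Of 44 assembly factors, 34 were higher in BAT (median 1.41) and 25 in skeletal muscle (1.14), against the same 19.7% and 25.6% of all named genes, and 0 were lower in either tissue. Atpaf2, an assembly factor of ATP synthase, was farthest in BAT at 66.3 FPKM and Sco2, a copper chaperone, nearest at 8.54 FPKM, while Cox17 (49.7 FPKM) and Surf1 (19.4 FPKM) were the extremes in skeletal muscle. The loci of Cox17 (Gm21987 and Popdc2), Sco2 (Lmf2 and Tymp) and Mrps6 (Slc5a3) also carry other genes, which their values include. These medians all lay below those of the subunits except for the tricarboxylic acid cycle, and no difference between lists was tested.

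Among 14 transcriptional regulators of respiratory genes, 7 were higher in BAT and 7 in skeletal muscle (19.7% and 25.6% of all named genes), with medians of 0.95 and 1.12. Ppara, a receptor for fatty acids, was farthest in BAT, with 45.6 FPKM there, 73.9 in liver and 3.10 in skeletal muscle. Pprc1, a coactivator of the PGC-1 family, was nearest in BAT at 0.84 FPKM. The nuclear receptor Esrra was farthest in skeletal muscle (2.37), with 33.3 FPKM in BAT, 26.6 in skeletal muscle, 17.6 in kidney, 6.81 in liver, 3.79 in cortex, 2.36 in VAT and 1.85 in SCAT, and Gabpb1, a subunit of the factor that binds ETS motifs, was lowest there (-0.54).

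Of 9 subunits and electron carriers outside the naming patterns, 8 were higher in BAT and 5 in skeletal muscle (19.7% and 25.6% of all named genes), with medians of 2.75 and 1.45. Cycs, cytochrome c itself, had 965 FPKM in BAT, 418 in skeletal muscle and 23.0 in SCAT. Atpif1 encodes the inhibitor of ATP synthase and ran against the subunits, with 152 FPKM in kidney, 77.4 in cortex, 32.6 in VAT, 12.8 in skeletal muscle, 11.3 in BAT, 11.2 in SCAT and 9.72 in liver. Etfdh passes electrons from fatty acid oxidation to ubiquinone and was the farthest of these in BAT, with 451 FPKM there, 181 in liver, 89.8 in skeletal muscle and 5.70 in cortex. Of 5 uncoupling and adenine nucleotide carriers, Slc25a4, the muscle form of the ADP/ATP carrier, had 1196 FPKM in skeletal muscle and 118 in BAT. Its relative Slc25a5 had 119 FPKM in BAT and 16.4 in skeletal muscle, where its log2 difference was -1.91. Ucp2 was nearest in BAT, at 10.2 FPKM, and Ucp3 was farthest in skeletal muscle, at 64.1 FPKM.

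The 13 genes encoded by mitochondrial DNA could be compared only in part. In the table mt-Co1 has no value in any tissue and mt-Co2, mt-Co3, mt-Atp6 and mt-Atp8 are listed at under 1 FPKM or have no value, although every cell with mitochondria uses them, so they were not used. The 8 others, of which mt-Nd4 and mt-Nd4l share 1 locus, had a median difference of 2.49 in BAT, 1.85 in skeletal muscle and -3.53 in SCAT, and of 1.06 in liver, 0.32 in kidney, -2.05 in VAT and -1.29 in cortex. The signs match those of the nuclear members, but the order does not, since liver stood above kidney. mt-Nd1 departed from the others, with 467 FPKM in cortex, its highest level, and 107 FPKM in kidney. mt-Nd6 had 3761 FPKM in skeletal muscle, 2858 in BAT, 1698 in liver, 1192 in kidney, 358 in VAT, 268 in cortex and 233 in SCAT. It thus held the largest part of the FPKM summed over the listed mitochondrial genes, 5010 in skeletal muscle and 4687 in BAT. Whether the 8 genes that were kept were quantified correctly was not tested, so their values and medians carry this limit. The smallest and largest differences in BAT were those of mt-Nd1 (1.10) and mt-Nd3 (3.02), and mt-Nd3 was listed at 0 in SCAT and skeletal muscle and at most at 2.18 FPKM elsewhere. Without mt-Nd3, a choice made after seeing the data, the medians of the other 7 were 2.40 in BAT, 1.85 in skeletal muscle and -3.56 in SCAT.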

How the data were processed

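Total RNA from 7 tissues was depleted of ribosomal RNA and sequenced as directional read pairs of 101 bases, with 1 library per tissue. According to the labels and the study's methods, adapters were trimmed with flexbar, ribosomal reads removed with Bowtie2 2.2.9, reads aligned with STAR 2.6.0c to mm10 (GRCm38), and transcripts assembled and quantified with Cufflinks 2.2.1, cuffmerge and Cuffdiff. The deposited values are FPKM per locus for 94339 loci in 21 comparisons of tissue pairs, made by the authors with Cuffdiff. The scaling between libraries and the library type are not given in the sources used here, and the depth is unknown, so no intervals are given. The columns of the authors' own comparisons (log2 fold change, test statistic, p and q) were not used.

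Names were split on commas, and a name with several loci (28 members) took the locus with the highest maximum FPKM. Loci marked FAIL were dropped and zeros marked LOWDATA were treated as missing, which touched 0 members. The strand of a locus was read from the order of the table. Of the 82 members, 81 were found in the GENCODE annotation, and 3 took a locus on the opposite strand (Cox8b, Cox8c and Uqcrfs1). Log2 differences used log2(FPKM + 0.1) over the 19122 named genes with at least 1 FPKM in any tissue, and fold differences on this scale understate those of low genes. A gene 2-fold above or below the reference was counted. Python 3.11.15, pandas 2.3.3, NumPy 2.4.6 and matplotlib 3.10.9 were used.

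Genes were named by rule: all isoform genes, core subunits, the members with the highest and lowest median FPKM of each complex, the 2 members farthest above and the 2 farthest below the reference in each tissue, members that share a locus or were under 1 FPKM, the 3 with the largest and the 3 with the smallest deviation range, and the extremes of the other lists in BAT and skeletal muscle. The values of 1 core subunit are not reported here. Ndufa7, Ndufa10, Ndufa9 and Slc25a4 were named after their values were seen. The members and lists were chosen with earlier results of these data known. The alternatives were other pseudocounts, scalings, folds, minimum levels, choices of locus and reference tissues.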

Additional observations from a re-analysis of the deposited data

How the results depend on the processing

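No paired analysis was possible because each of the tissues has a single library, which also means that no group could lose a library. Of the counts over the members, 48 moved by over 1.5 times under an alternative and 182 did not, and of the medians 8 moved and 91 did not. The unmoved ones include 18 counts and 9 medians with LOWDATA zeros as 0, an alternative that touched 0 members and could move none. A median that changed sign by under 1.5-fold also counts as unmoved, as in liver (0.19 to -0.36 with equal sum scaling). Median ratio scaling changed the log2 values of a library by between -0.38 (skeletal muscle) and 0.49 (SCAT) and equal sum scaling by between -0.43 and 0.74. The median difference of all named genes, -0.26 in SCAT and 0.20 in skeletal muscle as reported, became 0.09 and -0.14 with the former and 0.32 and -0.21 with the latter. With median ratio scaling, 3 members were higher in liver (16.8% of all named genes), 10 higher and 2 lower in kidney (16.6% and 11.5%), 2 higher and 28 lower in VAT (23.0% and 3.56%) and 22 lower in cortex (21.0%), and the median of BAT over the white depots was 2.69. With equal sum scaling, 2 were higher and 9 lower in liver (12.7% and 25.4% of all named genes, median -0.36), 2 lower in kidney (11.9%), 2 higher and 16 lower in VAT (26.1% and 2.61%, median -0.68), 7 lower in cortex (18.8%, median -0.39), 2 lower in BAT (16.1%) and 17 lower in skeletal muscle than in BAT (16.6%), and the medians were -1.22 in SCAT and 2.46 for BAT over the white depots. With 4-fold, 1 was higher in liver (10.6% of all named genes), 2 higher and 0 lower in kidney (9.95% and 3.44%), 6 lower in VAT (1.06%), 2 lower in cortex (10.3%), 0 higher and 45 lower in SCAT (6.63% and 4.73%), 35 higher in skeletal muscle (10.4%) and 3 lower in skeletal muscle than in BAT (5.82%). When every other tissue had to be passed, 0 were higher and 2 lower in liver (6.83% and 3.54% of all named genes), 0 higher and 0 lower in kidney (4.22% and 0.591%), 0 lower in VAT (0.0837%), 0 lower in cortex (6.16%), 0 higher and 3 lower in SCAT (4.62% and 0.852%), 9 higher and 0 lower in BAT (2.72% and 0.424%), and 2 higher and 1 lower in skeletal muscle (7.75% and 1.01%). With VAT and SCAT left out of the reference, 1 was higher and 36 lower in liver (18.2% and 19.0% of all named genes, median -0.95), 3 higher and 4 lower in kidney (16.9% and 12.3%, median -0.41), 73 lower in cortex (28.0%, median -1.76) and 2 lower in BAT (12.0%), and the median in skeletal muscle was 1.29. Of the differences that were at least 2-fold as reported, the kidney differences of Cox7a1 (-1.93), Ndufa9 (-0.50), Uqcrfs1 (-0.44), Sdhb (-0.33), Atp5a1 (-0.26), Ndufs1 (-0.26), Sdhc (-0.18), Uqcr10 (-0.16) and Ndufb8 (-0.0069) and the liver difference of Ndufa6 (-0.000599) turned negative under that reference. Smaller differences that changed sign are not listed. A pseudocount of 1 or a minimum of 5 FPKM left 2 lower in liver, that minimum left 0 higher in VAT, and a pseudocount of 0.01 or the sum of loci gave 2 lower in kidney. With VAT alone as the white depot, 1 was lower in BAT. The use of the annotated strand alone, chosen after seeing the data, left 0 higher in VAT and put Cox8b at 79.3% of subunit VIII in BAT. Beyond the reference tissues and the scaling, the cause of these changes was not tested.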
